A study of Mus musculus with 2 samples.

Results

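The miR-200 family of the mouse comprises 5 miRNA genes, Mir200a, Mir200b, Mir429, Mir200c and Mir141. They were taken as the rows of the deposited count tables whose Ensembl identifier has one of these symbols in the GENCODE annotation. All 5 were found among 1973 miRNA genes, and each had at least 10 counts in both libraries, as did 305 genes in all. The study sequenced RNA molecules under 30 nucleotides from the stomachs of newborn (postnatal day 0) mice of the strain B6NCrl, with no treatment or engineered allele named. It holds 2 libraries, 1 from each of 2 pups of 1 dam. They form a single group, so the data describe levels and the difference between 2 littermates, and no condition is compared. Both samples carry the same donor record in the labels, although their descriptions name different pups.

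miR-200 miRNAs are abundant in epithelial cells and scarce in most mesenchymal cells. They repress Zeb1 and Zeb2, transcription factors that silence epithelial genes such as E-cadherin, and these factors in turn repress the miR-200 genes. The double-negative loop is best known from epithelial-mesenchymal transition (EMT), the change by which epithelial cells lose their junctions and become motile. In the mouse stomach, a squamous epithelium lines the forestomach and a glandular epithelium lines the rest.

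A miRNA finds its targets mainly through its seed, bases 2 to 8 from its 5′ end, which is in capitals below. The sequences are shown because the seed divides the family into groups that cut across its genomic clusters. They are RefSeq's mature sequences (GRCm38.p6), found for all 5 genes, and the first set comes from the 3p arm of each hairpin.
mmu-miR-429-3p: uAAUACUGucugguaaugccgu
mmu-miR-200b-3p: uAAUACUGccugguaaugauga
mmu-miR-200c-3p: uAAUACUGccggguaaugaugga
mmu-miR-200a-3p: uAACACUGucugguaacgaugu
mmu-miR-141-3p: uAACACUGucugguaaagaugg
The first 3 share the seed AAUACUG and the other two share AACACUG. With positions counted from the 5′ end, miR-200b and miR-200a differ within the seed by U4C. No mature sequence of another mouse gene in the RefSeq table, which holds 1738 mature sequences, has either seed. Over the first 22 bases, 15 positions were the same in all 5 sequences, including the stretch GGUAA at positions 12 to 16. The closest pairs lay across the clusters. miR-200c and miR-200b were identical at 20 of 22 positions (G11U and G22A, with the base of miR-200c first), as were miR-141 and miR-200a (A17C and G22U, with the base of miR-141 first). The remaining pairs were identical at 17 or 18 positions.

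The same hairpins also carry a 5p arm, usually the less abundant product. The deposited counts are per gene and do not separate the arms, so the 5p sequences are shown as the other possible source of the reads.
mmu-miR-429-5p: gUCUUACCagacaugguuaga
mmu-miR-200b-5p: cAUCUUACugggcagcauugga
mmu-miR-200c-5p: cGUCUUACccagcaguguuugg
mmu-miR-200a-5p: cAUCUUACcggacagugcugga
mmu-miR-141-5p: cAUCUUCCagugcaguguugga
On this arm only miR-200a and miR-200b have a seed in common, AUCUUAC. Grouping the genes by seed below therefore refers to the 3p arm.

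These sequences bear on how far the counts can be trusted. The longest exact stretch of a member's mature sequence in the hairpin of another member was 16 bases, between miR-200a-3p and miR-141-3p. In hairpins outside the family the longest was 11 bases. No member's hairpin had 20 or more bases in common with another annotated hairpin, so a full-length read of any member matches 1 place exactly among annotated hairpins. Multimapping reads, which have more than 1 place in the genome, stand outside every count given here. They made up 26.0% of the reads of pup 1 and 25.7% of those of pup 2. Almost no read lay opposite to these genes. There was 1 such read beside 272848 own-strand reads in pup 1, and 0 beside 228083 in pup 2, where a count of 0 allows a share of up to 0.00132%. Over all miRNA genes the opposite strand held 2.26% and 2.15% of the reads. The libraries held 4463355 and 3454655 own-strand reads, which are the totals behind every level in counts per 1000000 (CPM).

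The genes lie in clusters on 2 chromosomes, all on the minus strand. In the direction of transcription, the chromosome 4 cluster runs from Mir200b (chr4:156055681-156055750, GRCm38) through Mir200a (chr4:156054896-156054985) to Mir429 (chr4:156053905-156053987) and spans 1846 nt. All 3 lie in an intron of Ttll10, a tubulin tyrosine ligase-like gene. Mir429 also overlaps an exon of the noncoding transcript Gm13648, and the others lie in its intron. The chromosome 6 cluster, of 477 nt, holds Mir200c (chr6:124718322-124718390) and Mir141 (chr6:124717914-124717985). Both are in an intron of the noncoding gene Gm15884. The hairpins of a cluster are known to be cut from a common primary transcript.

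All members were among the more abundant miRNA genes of the newborn stomach, and the highest exceeded the lowest 13.9-fold. Mir429 was the highest, with 134008 counts in pup 1, a level of 30024 CPM, and 102322 counts in pup 2, a level of 29619 CPM. The mean was 29821 ± 287 CPM (SD, n = 2). Mir200c had 60524 counts (13560 CPM) in the first pup and 57559 (16661 CPM) in the second, a mean of 15111 ± 2193 CPM. Mir200b had 57154 counts (12805 CPM) and 48894 (14153 CPM), a mean of 13479 ± 953 CPM. Each of these genes carries the AAUACUG seed, and the lowest of their values in either pup was 12805 CPM. The AACACUG genes were lower. Mir141 had 12223 counts (2739 CPM) in the first pup and 11312 (3274 CPM) in the second, a mean of 3006 ± 379 CPM. Mir200a, the lowest member, had 8939 counts (2003 CPM) and 7996 (2315 CPM), a mean of 2159 ± 220 CPM. The values of the AACACUG genes did not overlap those of the AAUACUG genes in either pup. The 95% Poisson interval of a single library was narrow, for example 1961 to 2045 CPM for Mir200a in pup 1. On the scale of total counts, the spread between pups was thus wider than counting error for every member. Such intervals cover counting error only, since reads amplified by PCR without molecular identifiers are not independent molecules.

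**Figure D1:**
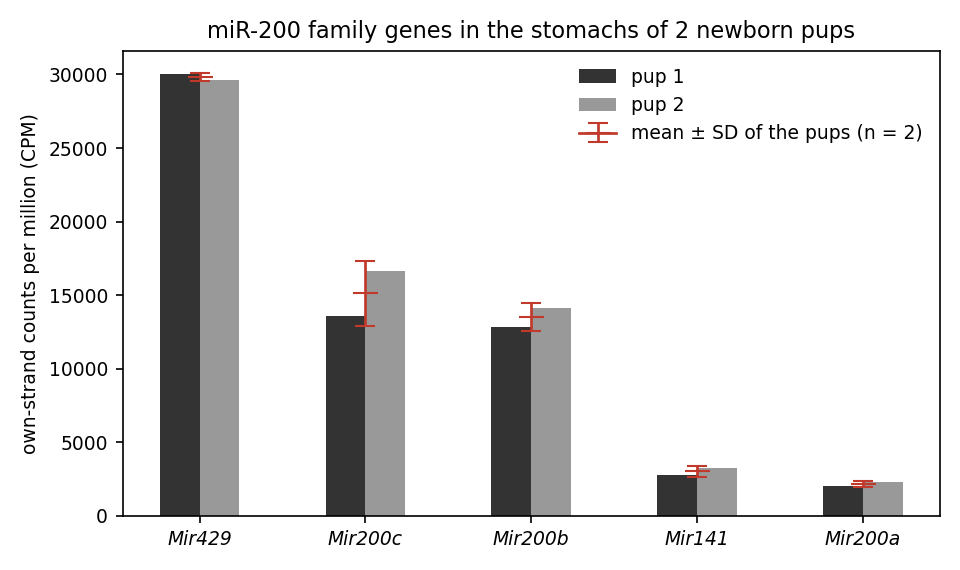
Own-strand CPM of each family gene in pup 1 (dark bars) and pup 2 (grey bars), with the mean and SD over the 2 pups in red. Mir429 stands at 30024 and 29619 CPM, Mir200c and Mir200b between 12805 and 16661 CPM, and Mir141 and Mir200a between 2003 and 3274 CPM.

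Neighbours in this order were compared within each library, where the ratio does not depend on the library's total. The mature sequences are 21 to 23 nt long, so a read was taken as 1 mature miRNA and counts were not divided by length. Whether all sequences enter a library equally well was not tested, so ratios between genes compare reads. Mir429 exceeded Mir200c 2.21-fold in pup 1 and 1.78-fold in pup 2, a log2 ratio of 0.99 ± 0.22 (SD, n = 2). Mir200c exceeded Mir200b 1.06-fold and 1.18-fold, a log2 ratio of 0.16 ± 0.11. This was the closest pair, and its difference in mean CPM was smaller than the SD of Mir200c, so the order of these genes rests on the ratio within libraries alone. The widest step lay between the seeds: Mir200b exceeded Mir141 4.68-fold in pup 1 and 4.32-fold in pup 2, a log2 ratio of 2.17 ± 0.08. Mir141 exceeded Mir200a 1.37-fold and 1.41-fold, a log2 ratio of 0.48 ± 0.03. The sign of every step was the same in both pups. The smallest p that an exact permutation test of 2 libraries allows is 0.5, and the SD is therefore the only yardstick here. It covers the spread between pups and no error that both libraries share.

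Together the members held 6.11% of own-strand counts in pup 1 (exact binomial 95% interval 6.09% to 6.14%) and 6.60% in pup 2 (6.58% to 6.63%). Mir429 alone made up 49.1% of the family's counts in pup 1 and 44.9% in pup 2. Mir200c contributed 22.2% and 25.2%, Mir200b 20.9% and 21.4%, Mir141 4.48% and 4.96%, and Mir200a 3.28% and 3.51%. By mean level, Mir429 ranked 7 of all miRNA genes, Mir200c 16, Mir200b 17, Mir141 43 and Mir200a 53. The median member, Mir200b at 13479 CPM, compares with a median of 166 CPM over the 305 detected genes, and all 5 members lay above that median.

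**Figure D2:**
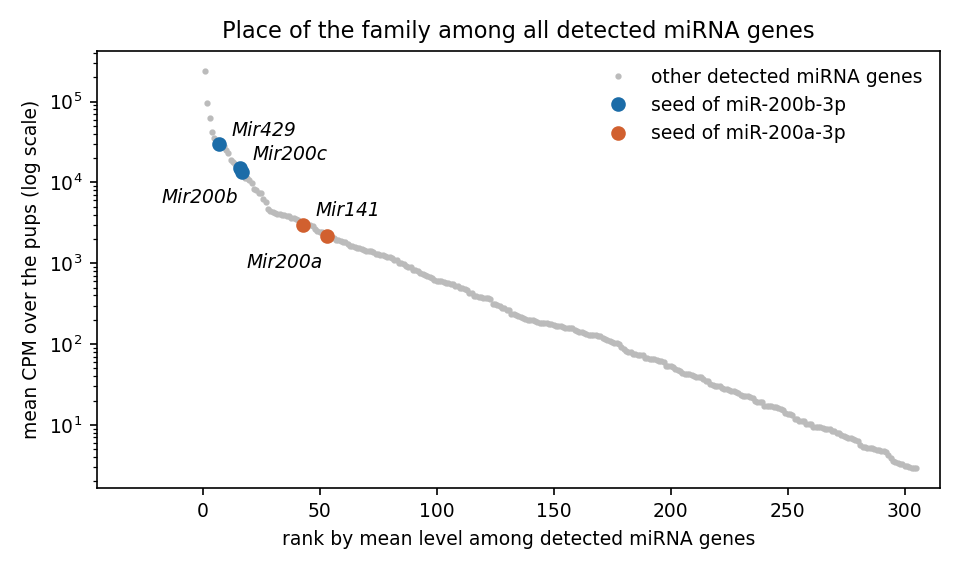
Mean CPM over the pups (log scale) against rank for 305 detected miRNA genes, with the family in colour by seed. The 3 genes with the seed of miR-200b-3p rank 7, 16 and 17, and the 2 with the seed of miR-200a-3p rank 43 and 53.

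The genes closest in level were found by the distance between pairs of log2 CPM in the 2 libraries. They describe the neighbourhood of each member in abundance and no shared pattern, since 2 libraries of 1 tissue hold none. Nearest to Mir429 were Mir26b, at 28538 ± 463 CPM, and the let-7 gene Mirlet7i, at 28544 ± 539 CPM. Nearest to Mir200c were Mir130a (15617 ± 1180 CPM) and Mir205 (16794 ± 2152 CPM), a miRNA of stratified epithelia. In mean CPM, Mir205 differed from Mir200c by less than the SD of either gene, but within libraries it was the higher one in both pups, by a log2 ratio of 0.17 in pup 1 and 0.14 in pup 2. Mir200b had Mir200c itself and Mir130a as its nearest genes. Mir141 stood beside Mir93 (3255 ± 397 CPM) and Mir106b (2955 ± 81.2 CPM), members of a cluster linked to proliferation. Mir200a stood beside Mir541 (2098 ± 197 CPM) and Mir423 (2079 ± 223 CPM).

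The chromosome 4 cluster yielded more reads than the chromosome 6 cluster, through 1 gene. It held 4.48% of own-strand counts in pup 1 and 4.61% in pup 2, against 1.63% and 1.99% for chromosome 6, a log2 ratio of 1.33 ± 0.18 or 2.52-fold. Leaving out Mir429, a choice made after the data were seen, the direction turned: the log2 ratio of chromosome 4 over chromosome 6 was -0.21 ± 0.10. Genes with the same seed in the 2 clusters were closer to each other than to their cluster partners. Mir200c exceeded its seed partner Mir200b 1.12-fold and Mir141 exceeded Mir200a 1.39-fold, so that for these pairs the chromosome 6 gene was the higher one in both pups. Within a cluster, Mir200c exceeded Mir141 5.02-fold (log2 ratio 2.33 ± 0.03), and Mir200b exceeded Mir200a 6.25-fold (2.64 ± 0.05). Mir429, the last hairpin of its cluster, exceeded Mir200b, the first, 2.22-fold (1.15 ± 0.12) and the middle hairpin Mir200a 13.9-fold (3.79 ± 0.16). Each of these ratios was larger than its SD over the pups. Levels thus did not follow the order of the hairpins on chromosome 4, where the lowest lies in the middle.

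**Figure D3:**
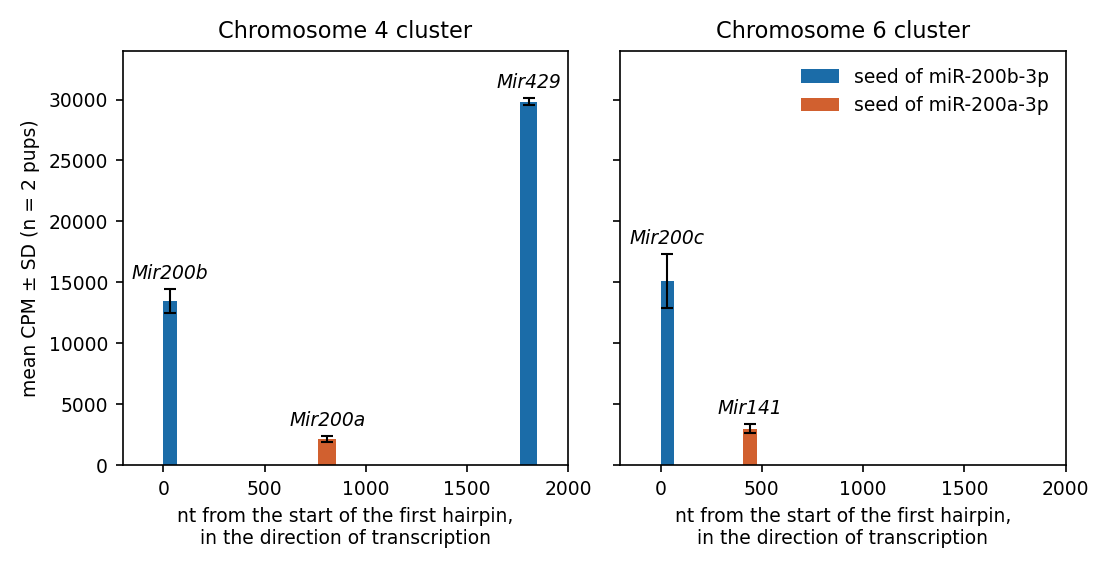
Mean CPM ± SD (n = 2 pups) of each hairpin, drawn at its distance in nt from the start of the first hairpin of its cluster, coloured by seed. In both clusters the hairpin with the seed of miR-200a-3p is the lowest, at 2159 CPM for Mir200a and 3006 CPM for Mir141.

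Summed by seed, the AAUACUG genes exceeded the AACACUG genes by an order of magnitude. The AAUACUG group held 5.64% of own-strand counts in pup 1 and 6.04% in pup 2, and the AACACUG group 0.474% and 0.559%. The log2 ratio was 3.57 in pup 1 and 3.43 in pup 2, a mean of 3.50 ± 0.10 or 11.3-fold. Without Mir429, chosen after seeing the data, it was 2.47 ± 0.01, in the same direction. Known targets differ between these seeds in part, because the base that distinguishes them lies inside the seed, while Zeb1 and Zeb2 carry sites for both. Target mRNA was not measured in these libraries.

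All 5 members differed between the pups by less than 1.5-fold. After TMM scaling, which aligns the bulk of genes between libraries, Mir429 had a log2 ratio of pup 1 over pup 2 of 0.12 (exact 95% interval 0.11 to 0.13). The other members were lower in pup 1 by value. Mir200c stood at -0.19 (-0.21 to -0.18) and Mir141 at -0.15 (-0.19 to -0.12). Mir200a had a log2 ratio of -0.11 (-0.15 to -0.06) and Mir200b of -0.04 (-0.06 to -0.02). A gene was called different at an adjusted p under 0.05 in a two-sided exact binomial test, with Benjamini-Hochberg adjustment over 305 genes, and a ratio of at least 1.5. By this rule 9 of 305 genes (2.95%) were called, and 0 of the 5 members. The members' adjusted p in that test ran from 1.8e-116 for Mir200c to 1.2e-05 for Mir200b, so their differences exceeded counting error, as did those of 159 of the 305 genes. For Mir200b this depended on the scaling. Its adjusted p in the binomial test was 0.094 with DESeq2 size factors and 0.177 with TMM over genes with at least 1 count. A ratio under 1.5 held for 292 of the 305. What is compared is a pair of libraries, with no error other than that of counting. When the error was the common dispersion from edgeR, 1 of 305 genes (0.328%) was called and 0 members, whose unadjusted p ran from 0.405 to 0.859 and whose adjusted p from 0.958 to 0.960. That dispersion was estimated from the same 2 libraries, 1 per pup, so a difference of usual size cannot pass, and these p do not show that the pups were alike in the members. The median absolute log2 ratio was 0.12 for the members, beside 0.17 over all 305 genes and 0.15 over the 85 genes at 1000 CPM or more.

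The scaling moved the comparison of the family as a whole. Scaled by total counts, the median gene had a log2 ratio of -0.13, and the family's summed counts -0.11. After TMM the median gene stood at -0.02 and the family at -0.01. Mir429 was higher in pup 1 and the others were higher in pup 2 under TMM, total counts and DESeq2 size factors alike. The composition of the family, which no scaling affects, shifted in the same sense. The ratio of Mir429 to Mir200c was larger in pup 1 than in pup 2 by 0.32 on the log2 scale, and the ratio of the chromosome 4 to the chromosome 6 cluster by 0.25. Mir200c and Mir141 kept nearly the same ratio in both pups, 4.95-fold and 5.09-fold. After TMM, summed log2 ratios of pup 1 over pup 2 were 0.04 for the squamous epithelial genes, 0.19 for the glandular epithelial genes, -0.01 for the endocrine genes and 0.20 for the smooth muscle genes. They were 0.15 for endothelium, 0.09 for mesenchyme, 0.05 for leukocytes and -0.13 for the neural genes. The widest was that of striated muscle, at -0.94, where Mir206 alone had a log2 ratio of -1.34. That list thus stood higher in pup 2 by value, as did the neural and endocrine lists. So did 4 of the 5 members, beside 160 of all 305 detected genes (52.5%). The part of these lists in the differences between members was not tested. In whole tissue, fewer cells of a type and less RNA per cell cannot be told apart.

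**Figure D4:**
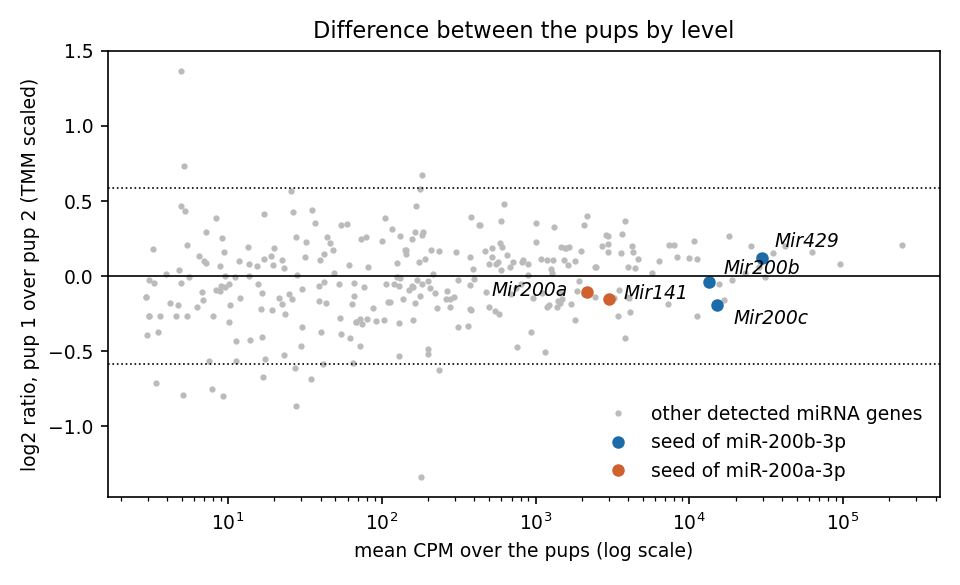
Log2 ratio of pup 1 over pup 2 after TMM scaling against mean CPM (log scale) for 305 detected genes, with the family in colour by seed. Dotted lines mark a ratio of 1.5 in either direction; Mir429 lies at 0.12 and the other members between -0.19 and -0.04.

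Set beside lists of miRNA genes linked to cell types, the family ranked below smooth muscle and squamous epithelium. Markers of both gastric linings were present. The squamous genes (Mir203, Mir205 and Mir31) had 3 of 3 members detected and a median member of 16794 CPM. The glandular genes (Mir215, Mir192, Mir194-2 and Mir194-1) had 4 of 4 detected and a median of 1812 CPM. The family held 0.557 times the squamous share, a log2 ratio of -0.84 ± 0.03. With Mir203 left out, again a choice made after the data were seen, the family exceeded the squamous list by 1.77 ± 0.10. Here and below, leaving out the highest gene of a list can only raise the family's ratio, and Mir429 was kept in the family. The family exceeded the glandular share 8.02-fold with a log2 ratio of 2.91 in pup 1 and 3.10 in pup 2, and of 3.95 ± 0.02 without Mir215. Of the glandular genes, 2 (Mir194-1 and Mir194-2) have 20 nt or more in common with another hairpin and can be undercounted. No family member has such a stretch. Whether shorter reads, or matches elsewhere in the genome, lowered the members' counts was not tested. Against the endocrine genes, led by Mir375, Mir182 and Mir183, with 7 of 7 detected, the log2 ratio was 2.08 ± 0.001, and 3.07 ± 0.15 without Mir375. Mir182 (3816 CPM) and Mir183 (1966 CPM) were counted there beside Mir375 (7417 CPM). Whether their reads came from endocrine cells was not tested. The miR-200 genes are expressed in many epithelia, so these counts do not tell which lining their reads came from.

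Among cell types other than epithelium, Mir143 and Mir145a of smooth muscle exceeded the family, which had a log2 ratio of -1.96 ± 0.15 over them. Without Mir143, chosen after seeing the data, this ratio was 3.48 ± 0.02. The family exceeded Mir126a of endothelium by 0.86 ± 0.11. It exceeded the mesenchymal genes, with Mir214, Mir140 and Mir199b the highest, by 3.52 ± 0.07, and by 5.04 ± 0.02 without Mir214. For the neural genes, 3 of 8 detected and led by Mir137, Mir132 and Mir338, the log2 ratio was 5.38 ± 0.09, and 7.66 ± 0.07 without Mir137. Leukocyte genes, led by Mir223, Mir146 and Mir155, stood 6.64 ± 0.04 below the family on this scale, and 8.59 ± 0.20 without Mir223. The striated muscle genes, with Mir206 and Mir208b detected, stood 7.97 ± 0.66 below it, and 9.50 ± 0.14 without Mir206. The undetected genes of the neural and striated muscle lists all share a stretch with another hairpin and can be undercounted. Their low counts cannot be read as low levels, and the family's ratios over both lists can be too large. Of the 6 mesenchymal genes 3 share such a stretch too, Mir199b among them. So do 1 of the 4 leukocyte genes (Mir146) and 2 of the 7 endocrine genes. The family's ratios over the mesenchymal, leukocyte and endocrine lists can therefore also be too large. Lists differ in their number of genes and in how many share sequence, so these ratios compare summed counts and not amounts of cells.

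**Figure D5:**
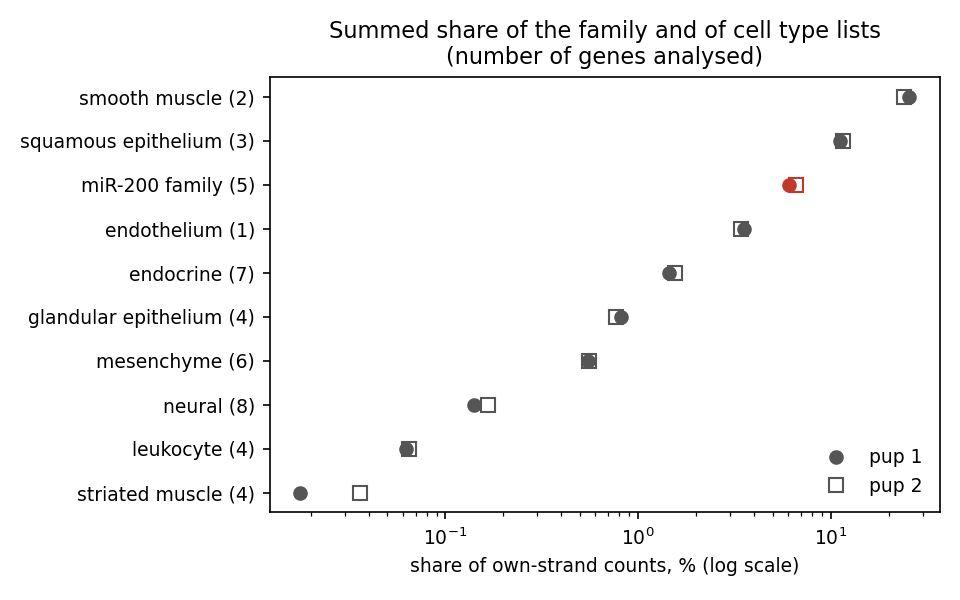
Share of own-strand counts (log scale) held by the family (red) and by lists of cell type miRNA genes in pup 1 (filled circles) and pup 2 (open squares), with the number of genes analysed in brackets. The family, at 6.11% and 6.60%, lies between the squamous epithelial and the endothelial list in both pups.

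Other miRNA genes have been reported to act on EMT. Of 8 genes reported to oppose it, 8 were detected, with a median of 1009 CPM. They were Mir203 (95385 ± 1150 CPM), Mir205, Mir30a (3913 ± 459 CPM), Mir101b (1470 ± 63.8 CPM), Mir34a (548 ± 89.0 CPM), Mir34c, Mir101a and Mir34b, the last at 8.92 ± 0.893 CPM. The family's median member, at 13479 CPM, was above 6 of these 8 genes. The family held less than their sum (log2 ratio -0.90 ± 0.03), and more once Mir203 was left out (1.46 ± 0.09). Of these 8 genes 2, Mir101b and Mir101a, share a stretch with another hairpin and can be undercounted. The median and the sum of the 8 can therefore be too low. Of 10 genes analysed that are reported to favour EMT, 7 were detected, and the median over all 10 was 116 CPM. Mir21a, widely expressed and induced in many tumours, stood highest at 31266 ± 1682 CPM. Mir429 and Mir21a were nearly level in pup 1, at 134008 and 134241 counts, whereas in pup 2 Mir21a led with 112120 against 102322. Mir10b followed at 2957 ± 242 CPM, close to Mir141. Mir107, Mir221, Mir222, Mir155 and Mir103-2 ran from 691 ± 74.0 down to 26.1 ± 3.27 CPM. The family exceeded the sum of these genes by a log2 ratio of 0.84 ± 0.01, and by 3.89 ± 0.10 without Mir21a. Of the 10 genes 5 share a stretch with another hairpin, Mir9-2, Mir9-3 and Mir103-1 among them, so their low counts cannot be read as low levels.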

How the data were processed

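Each library has a table that the authors deposited as raw, unscaled counts of reads, 1 per strand and gene beside their sum. The description files deposited with the tables name mm10 and annotation M4. Which aligner and counter made them is not given in the sources used here. The strand column with the larger total (97.7% and 97.8% of gene counts) was used. Reads with no gene, 36.5% and 36.3% of all reads, stayed out of totals. Symbols and positions came from GENCODE M21 on GRCm38, which matched 1894 of 1973 identifiers. The tables carry an older version of the identifiers of Mir200b and Mir200c, whose positions are those of M21. CPM is counts per 1000000 own-strand counts.

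The pups were compared with scipy 1.17.1 and edgeR 4.0.16 (TMM and common dispersion), with DESeq2 1.42.0 size factors as an alternative. The binomial test was checked on simulated data with Poisson counting error only, so the check does not cover variation beyond counting. A shared stretch means at least 20 nt. The genes named are the 5 members, the 2 nearest in level to each, up to 3 of each cell type list and the detected EMT-linked genes. Mir9-2, Mir9-3 and Mir103-1 were named after their values were seen. Members and lists were chosen with earlier results of these data known. Mir9-1 was not analysed here.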

Additional observations from a re-analysis of the deposited data

How the results depend on the processing

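The family's share of 6.36% was 8.38% without Mir143 in the total, 4.34% of all mapped reads and, without Mir429 in list and total, 3.48%. In the same way the level of Mir429 became 39343 CPM without Mir143 and 20331 per 1000000 mapped reads, Mir200c 19910 and 10306, Mir200b 17771 and 9191, Mir141 3962 and 2050, and Mir200a 2845 and 1472, because the total changed by construction. On the counts of both strands Mir429 stood at 29164 CPM. Per nucleotide of hairpin, the log2 ratio of the clusters was 1.15, that of Mir429 over Mir200c 0.72 and that of Mir141 over Mir200a 0.80, with the order of the members kept. Without Mir429 the cluster ratio was -0.21 and the seed ratio 2.47. The family's log2 ratio over the squamous list (without Mir203), the smooth muscle list (without Mir143) and the genes reported to oppose EMT (without Mir203) turned to 1.77, 3.48 and 1.46. Leaving out a list's highest gene can move this ratio in that direction only. The number of genes called between the pups was 16 with total counts and 1 with edgeR's common dispersion, beside 9. No member was called under any of the 6 alternatives. Leaving out either pup turned none of the ratios between members or clusters. No paired analysis was possible because the series holds 1 group. Depth limited no member, the lowest having 7996 counts. The number of pups limits the precision.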
